A study of Mus musculus with 6 samples.

Results

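The transcripts of 5 potassium channel subunits were followed in sorted parietal cells of the mouse stomach, which secrete acid. They are Kcnq1, Kcne2, Kcnj15, Kcnj16 and Kcnj10, and they were taken by symbol from the 23284 genes of the deposited FPKM table (fragments scaled by transcript length and library size). All 5 have a row in it. Expression was compared between 3 control and 3 noggin libraries, all from primary stomach cells labelled as parietal. Control cells carry the label Transgenic-Tom and noggin cells Transgenic-Tom-nog. By the series' design, noggin mice carried H+/K+-Cre, H+/K+-Nog and Rosa26-tdTom, so that the proton pump promoter of parietal cells drove the recombinase and the transgene for noggin, a secreted protein that binds bone morphogenetic proteins. All groups share the tdTomato reporter, by which cells were purified in a flow cytometer. Sample titles call the 3 libraries of a group biological replicates. Not stated in the labels or the series text are the age of the mice, whether controls carried H+/K+-Cre, and whether a replicate was 1 mouse or a pool.

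The parietal cell pump exports protons into the gland lumen in exchange for potassium ions. The pump stops unless potassium flows back into the lumen, and potassium channels of the apical membrane provide this return path. Kcnq1 encodes a voltage-gated pore, and Kcne2 a single-pass partner that keeps that pore open at rest and in acid; mice that lack either gene make little or no acid. Kcnj15 (Kir4.2) and Kcnj10 (Kir4.1) encode inward rectifier pores, of which the first has been described in rabbit and the second in rat parietal cells. Kcnj16 (Kir5.1) conducts mainly when it is combined with Kir4.1 or Kir4.2.

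The annotated positions are in mm10 (GENCODE M21). Kcnq1 lies on chromosome 7 (143106362 to 143427042, plus strand), Kcne2 on chromosome 16 (92292389 to 92298129, plus strand), Kcnj15 on chromosome 16 (95257558 to 95300260, plus strand), Kcnj16 on chromosome 11 (110968033 to 111027968, plus strand) and Kcnj10 on chromosome 1 (172341210 to 172374085, plus strand). Kcne2 and Kcnj15 are 2.96 Mb apart. The longest annotated transcripts have 3029 bases for Kcnq1, 1690 for Kcne2, 5705 for Kcnj15, 3701 for Kcnj16 and 5407 for Kcnj10. No source used here states that reads kept their strand. Of the 3029 exon bases of Kcnq1, 121 (3.99%) are also covered by the antisense transcript Kcnq1ot1, and of the 5705 of Kcnj15, 333 (5.84%) by the antisense gene Gm49643. Kcne2, Kcnj16 and Kcnj10 overlap 0 annotated genes.

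The 250 bases before the annotated gene start are shown for Kcne2, the most abundant of the 5, and for Kcnj15 and Kcnj16, the inward rectifier pair with signal. The windows come from RefSeq (GRCm38.p6) and run 5′ to 3′ on the plus strand, at chr16:92292139-92292388 for Kcne2, chr16:95257308-95257557 for Kcnj15 and chr11:110967783-110968032 for Kcnj16. Capitals mark a match to either of 2 motifs searched on both strands, AAGGTCA, the half-site of estrogen-related receptors, and GGCGCC, a GC-rich element of BMP-regulated Smads.
Kcne2: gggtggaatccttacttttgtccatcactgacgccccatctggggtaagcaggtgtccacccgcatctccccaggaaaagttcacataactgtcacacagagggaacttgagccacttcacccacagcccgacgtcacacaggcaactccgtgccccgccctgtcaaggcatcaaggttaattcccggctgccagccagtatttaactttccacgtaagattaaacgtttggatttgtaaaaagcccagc
Kcnj15: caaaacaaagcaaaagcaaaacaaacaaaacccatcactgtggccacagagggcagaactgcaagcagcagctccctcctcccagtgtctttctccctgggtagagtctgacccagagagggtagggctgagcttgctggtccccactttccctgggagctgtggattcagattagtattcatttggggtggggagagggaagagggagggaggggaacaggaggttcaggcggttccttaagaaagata
Kcnj16: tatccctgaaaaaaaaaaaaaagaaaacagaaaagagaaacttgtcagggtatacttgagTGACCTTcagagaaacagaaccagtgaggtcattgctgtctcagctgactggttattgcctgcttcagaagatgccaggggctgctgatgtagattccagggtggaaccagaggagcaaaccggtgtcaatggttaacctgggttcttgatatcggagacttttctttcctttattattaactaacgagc
The Kcnj16 window holds 1 AAGGTCA match, as its reverse complement, and the Kcne2 and Kcnj15 windows hold neither motif. Over the 32851 RefSeq windows of the same length, 4.08% hold AAGGTCA and 9.59% hold GGCGCC, and the motifs share no bases in the windows shown. RefSeq lists other starts for Kcne2 and Kcnj16, and gene-level values do not tell which start was used.

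Nog separated the groups as labelled: it was at 0.871 to 1.97 FPKM in controls and at 2281 to 2734 FPKM in noggin libraries. All 8 parietal markers examined, Atp4a and Atp4b of the proton pump among them, reached 1 FPKM in at least 3 libraries, with a summed level of 31300 to 38300 FPKM in controls and 27600 to 31000 FPKM in noggin libraries. Atp4b held most of that sum. Of the 8 markers 4 were called lower and 0 higher with limma, against 0.695% of all tested genes called lower, and 7 had negative values, at a median of -1.18 on the log2 scale. That count of calls was 1 with a pseudocount of 0.1, 0 with the length trend removed, 0 without any one control and 5 after rescaling to equal totals. Markers of other gland cells were also present: summed chief cell markers were at 60900 to 112000 FPKM in controls and 131000 to 358000 FPKM in noggin libraries, and summed mucous neck cell markers at 2460 to 3360 and 10800 to 25900 FPKM. Of the 6 chief cell markers 0 were called in either direction with limma. Most of their sum was Pgc and Clps. Pgc overlapped between groups, at 37490 to 66220 FPKM in controls and 42140 to 110400 FPKM in noggin libraries. Clps was at 22780 to 44840 and 73510 to 244800 FPKM. With limma 5 of 5 neck markers were called higher, against 1.75% of all tested genes, but 1 with a pseudocount of 0.1 and 0 without a filter on low values or without any one control. In such bulk samples, fewer cells of a type and less RNA per cell cannot be told apart, and the part of cell makeup in the results that follow was not tested. Total FPKM ran from 595740 to 669120 in controls and from 797170 to 1188200 in noggin libraries, and read depth is unknown. Noggin replicate 3 stood apart, with 542 of the 10644 tested genes listed at 0 against 19 to 34 in the other libraries.

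In these cells 4 of the 5 channel transcripts were abundant and 1 was close to absent. In each of the 6 libraries the order was the same, from Kcne2 through Kcnq1, Kcnj16 and Kcnj15 down to Kcnj10. FPKM is scaled by transcript length for comparison between genes, but the lengths used for that scaling are not known. The order of the 4 abundant transcripts also runs from the shortest to the longest annotated transcript. The part of length in this order was not tested. Among all 23284 genes, ranked by control mean, Kcne2 stood at place 255, Kcnq1 at 386, Kcnj16 at 557, Kcnj15 at 982 and Kcnj10 at 16388. Among 94 genes with a Kcn symbol, the first 4 held places 1 to 4 in both groups. The next, Kcne1, had a control mean of 33.9 ± 6.48 FPKM (SD, n = 3).

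**Figure D1:**
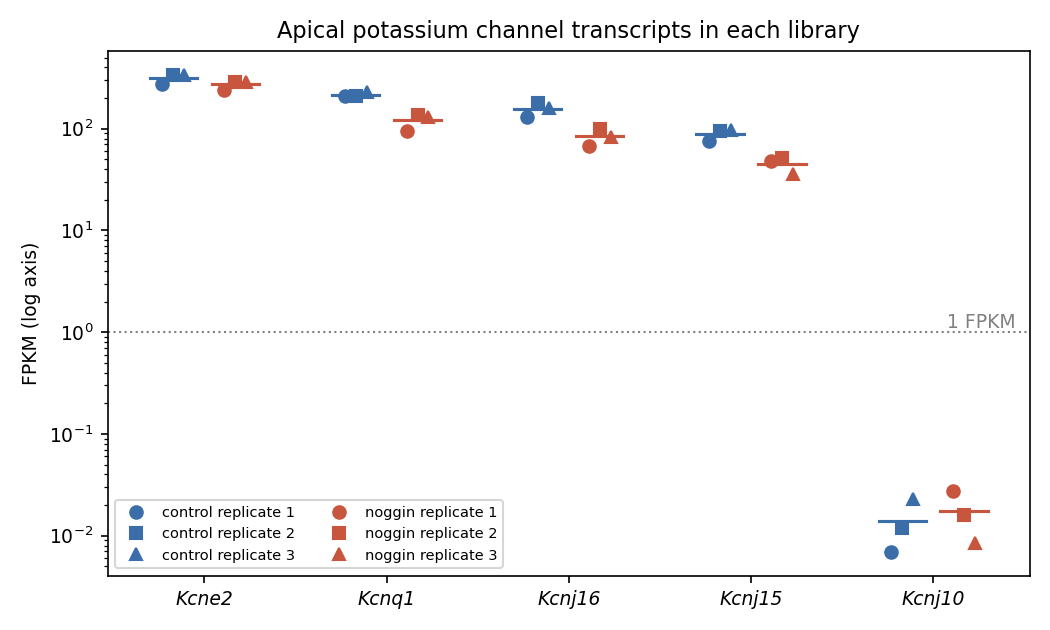
FPKM (log axis) of the 5 channel transcripts in each library, with controls in blue, noggin libraries in red, symbols for replicates 1 to 3 and a line at the group mean. Kcnq1, Kcnj16 and Kcnj15 are lower in all 3 noggin libraries than in any control, Kcne2 overlaps between the groups, and Kcnj10 stays under 0.03 FPKM throughout.

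Kcnq1, the pore of the main apical channel, was at 210.1, 209.9 and 228.4 FPKM in control replicates 1, 2 and 3 and at 94.1, 137.6 and 130.5 FPKM in noggin replicates 1, 2 and 3. Every noggin library was below every control, and noggin replicate 1 was the lowest. Relative to the control mean of 216 ± 10.6 FPKM (SD, n = 3), noggin libraries stood at 43.5%, 63.7% and 60.4%. The log2 fold change on the log2(FPKM + 1) scale was -0.85 (SE 0.199, 95% interval -1.31 to -0.39), with an unadjusted p of 0.00291 and a limma adjusted p of 0.0709 over the 10644 genes tested, which did not pass the threshold of 0.05.

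Kcne2, the partner that keeps Kcnq1 open, was at 274.3, 339.8 and 340.0 FPKM in control replicates 1, 2 and 3 and at 238.8, 288.5 and 288.9 FPKM in noggin replicates 1, 2 and 3. The groups overlapped, since noggin replicates 2 and 3 lay above control replicate 1. The noggin mean was 85.5% of the control mean (272 ± 28.8 against 318 ± 37.9 FPKM, SD, n = 3 each). The log2 difference of -0.22 (SE 0.188, adjusted p = 0.464 by limma) had a 95% interval from -0.66 to 0.21, which leaves room for a lower as well as a slightly higher level.

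Kcnj15, the inward rectifier pore with signal, was at 74.9, 95.9 and 97.2 FPKM in control replicates 1, 2 and 3 and at 47.96, 51.1 and 35.7 FPKM in noggin replicates 1, 2 and 3. The groups did not overlap, and noggin replicate 3 was lowest. The noggin mean of 44.9 ± 8.17 FPKM was 50.3% of the control mean of 89.3 ± 12.5 FPKM (SD, n = 3 each), with a log2 fold change of -0.98 (SE 0.213, 95% interval -1.48 to -0.49, limma adjusted p = 0.0624).

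Kcnj16, the inward rectifier subunit that works in combination, was at 131.4, 177.0 and 160.9 FPKM in control replicates 1, 2 and 3 and at 68.3, 100.3 and 83.3 FPKM in noggin replicates 1, 2 and 3. Again the groups did not overlap. The noggin mean of 83.96 ± 16.0 FPKM was 53.7% of the control mean of 156 ± 23.2 FPKM (SD, n = 3 each), with a log2 fold change of -0.90 (SE 0.212, 95% interval -1.39 to -0.40, limma adjusted p = 0.0739).

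Kcnj10, the other pore that Kcnj16 can join, was at 0.00694, 0.0118 and 0.0227 FPKM in control replicates 1, 2 and 3 and at 0.0277, 0.0158 and 0.00849 FPKM in noggin replicates 1, 2 and 3. The groups overlapped. It was under the filter of 1 FPKM in 3 libraries and was not tested. In controls Kcnj16 was accompanied by Kcnj15 at 0.571, 0.542 and 0.604 of its own level, and by almost no Kcnj10. The glial markers S100b, Sox10 and Gfap, examined because glia are known for Kcnj10, were under 1 FPKM in all 6 libraries.

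With limma 0 of the 4 tested channel genes passed the threshold, against 0.695% of all tested genes that were called lower and 1.75% called higher. Kcnq1, Kcnj15 and Kcnj16 had an unadjusted p under 0.05, as had 10.9% of tested genes in the lower direction. The same 3 were lower in every noggin library than in any control, as were 18.0% of all tested genes. The median log2 fold change of the 4 was -0.87, against -0.03 over all tested genes. All 4 had negative values in each of 16 alternative settings. Some of these could not change the sign. Another filter, a fit without the mean-variance trend and a term for the replicate number leave each fold change as it is.

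The calls depended on how libraries are scaled. Rescaling all libraries to the same total moved the median of all tested genes to -0.63, and turned their calls from 74 lower and 186 higher to 820 lower and 130 higher. Under it Kcnq1 was at -1.57 (adjusted p = 0.0315), Kcnj15 at -1.69 (adjusted p = 0.0290) and Kcnj16 at -1.61 (adjusted p = 0.0328), so 3 channel genes were called lower. Relative to the median of all genes under the same setting, these values were -0.93, -1.06 and -0.97, close to -0.82, -0.95 and -0.86 without rescaling. Kcne2 was at -0.94 after rescaling (adjusted p = 0.0538), or -0.31 relative to that median. Quantile normalisation left the median at -0.10 and called 174 lower and 180 higher over all tested genes. It gave the same 3 calls, at -1.41, -1.34 and -1.34. Under it Kcne2 was at -0.84 (adjusted p = 0.0742), or -0.74 relative to that median. Leaving out noggin replicate 2 also gave these 3 calls, at -0.96, -1.08 and -1.03, with 825 lower and 1187 higher over all tested genes. Leaving out any other library gave 0 calls among the channel genes.

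**Figure D2:**
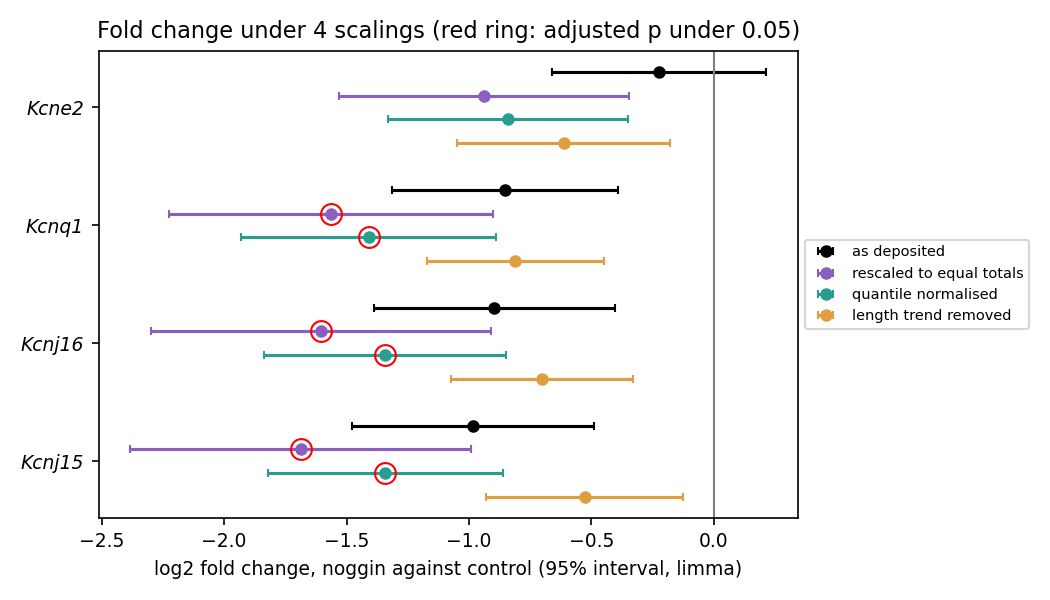
Log2 fold change (noggin against control) of the 4 tested channel genes with limma 95% intervals, for FPKM as deposited, after rescaling to equal totals, after quantile normalisation and with the length trend removed. Red rings mark an adjusted p under 0.05, which Kcnq1, Kcnj16 and Kcnj15 reach after rescaling and after quantile normalisation, while all points lie below 0.

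Fold changes in these libraries went with transcript length, so each channel gene was set beside genes of like length. Across 10542 genes, which are not independent replicates, the Spearman correlation of log2 fold change with the longest transcript was -0.51. The 1000 tested genes nearest to Kcne2 in length had a median log2 fold change of 0.40, so Kcne2 lay 0.62 below them, although its own value was only -0.22. Kcnq1 lay 0.79 below its neighbours in length, whose median was -0.06. Kcnj16 lay 0.69 below a median of -0.21, and Kcnj15, the longest of the 4, lay 0.49 below a median of -0.49. With the trend on the longest transcript removed from each library, the log2 fold changes were -0.81 for Kcnq1 (SE 0.155, adjusted p = 0.0641), -0.61 for Kcne2 (SE 0.187, adjusted p = 0.164), -0.70 for Kcnj16 (SE 0.159, adjusted p = 0.0857) and -0.53 for Kcnj15 (SE 0.172, adjusted p = 0.187). None passed the limma threshold, and all 4 had an unadjusted p under 0.05. The values depended on which transcript gave the length. With the median transcript of each gene, a correction added after seeing the data, they were -1.44 for Kcnq1 (SE 0.385, adjusted p = 0.0976), -0.20 for Kcne2 (95% interval -0.61 to 0.21, adjusted p = 0.510), -0.44 for Kcnj16 (adjusted p = 0.203) and -0.56 for Kcnj15 (adjusted p = 0.147).

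**Figure D3:**
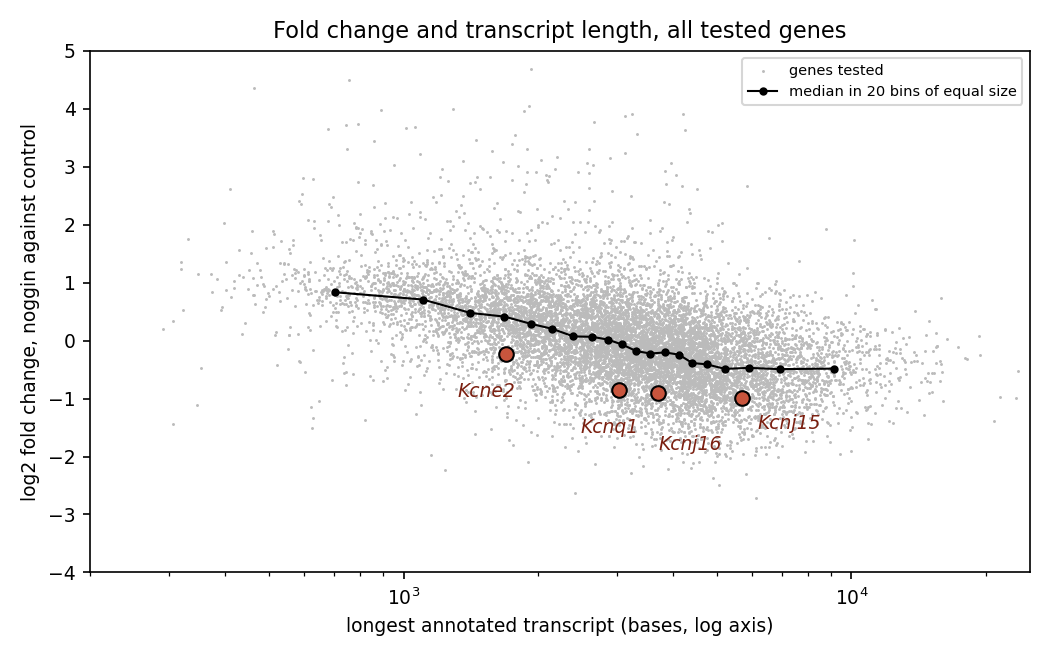
Log2 fold change (noggin against control) against the longest annotated transcript (log axis) for the tested genes with a length, with the median in 20 bins of equal size as a black line; 93 of 10542 genes lie outside the axes. The 4 channel genes, in red, all lie below the line, Kcne2 by 0.62 and Kcnj15 by 0.49 relative to the 1000 genes nearest in length.

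Ratios within a library do not move with its scaling, and 10 of them were compared between groups. The ratio of Kcnq1 to its partner Kcne2 was 0.766, 0.618 and 0.672 in control replicates 1, 2 and 3 and 0.394, 0.477 and 0.452 in noggin replicates 1, 2 and 3. All noggin libraries lay below all controls. On the log2 scale with a pseudocount of 1 the difference was -0.63, from -0.55 ± 0.156 to -1.18 ± 0.14 (SD, n = 3 each; two-sided exact permutation p = 0.1, the smallest that 3 against 3 libraries allow, and 0.167 after Benjamini-Hochberg adjustment over the 10 ratios). With the length trend removed the difference was -0.20 on the longest transcript, where the groups overlapped (exact permutation p = 0.2). On the median transcript it was -1.24, and every noggin library stayed below every control.

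The ratio of Kcne2 to Kcnj15 was 3.66, 3.54 and 3.50 in control replicates 1, 2 and 3 and 4.98, 5.64 and 8.10 in noggin replicates 1, 2 and 3. It was higher in every noggin library, with a log2 difference of 0.76 (exact permutation p = 0.1, adjusted p = 0.167). With the length trend removed the difference was -0.09 on the longest transcript, where the groups overlapped, and 0.36 on the median transcript, where every noggin library stayed above every control (exact permutation p = 0.1). Kcnj15 to Kcnj16 stood at 0.571, 0.542 and 0.604 in control replicates 1, 2 and 3. In noggin replicates 1, 2 and 3 it was 0.702, 0.510 and 0.428, so the groups overlapped, with more spread among noggin libraries. The log2 difference was -0.09 (exact permutation p = 0.7). Without noggin replicate 1 it was -0.28 with no overlap, and with the trend on the longest transcript removed it was 0.17. With this spread, 3 libraries per group cannot show whether the ratio was kept. The ratio of Kcnq1 to Kcnj15 also overlapped between groups, with a log2 difference of 0.13 (exact permutation p = 0.7), which turned to -0.28 with the length trend removed and to -0.09 without noggin replicate 3.

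**Figure D4:**
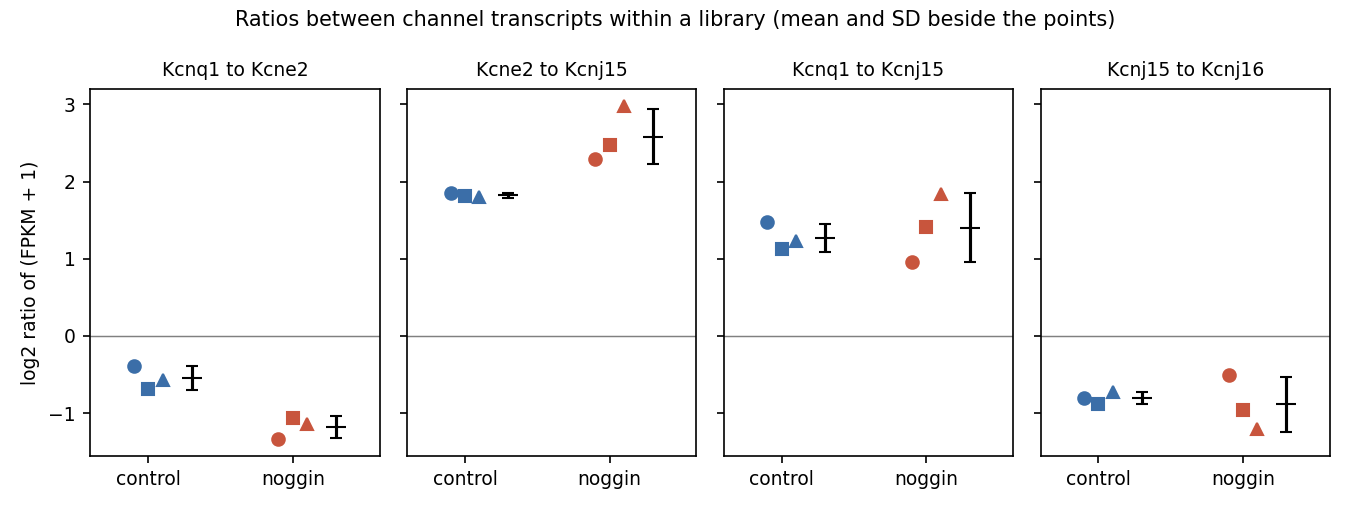
Log2 ratios of (FPKM + 1) between pairs of channel transcripts within each library, with circles, squares and triangles for replicates 1, 2 and 3 (controls blue, noggin red) and the mean ± SD in black. Kcnq1 to Kcne2 is lower and Kcne2 to Kcnj15 higher in every noggin library, and the other pairs overlap.

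The channels were also set against both subunits of the pump that they serve, and the direction depended on the subunit. Atp4a, the catalytic subunit, was at 13660, 13390 and 16220 FPKM in control replicates 1, 2 and 3 and at 5433, 7619 and 5773 FPKM in noggin replicates 1, 2 and 3. Atp4b, the other subunit, was at 16880, 21420 and 21150 FPKM in control replicates 1, 2 and 3 and at 25180, 22420 and 21470 FPKM in noggin replicates 1, 2 and 3. Every noggin library was thus below every control for Atp4a and above every control for Atp4b. The log2 fold change of Atp4b was 0.22 (SE 0.541, limma adjusted p = 0.814), which turned to -0.50 after rescaling, -0.63 after quantile normalisation and -0.31 with the trend on the longest transcript removed. Relative to the median of all tested genes, Atp4b was at 0.25 as deposited and 0.14 after rescaling. That value was -0.53 after quantile normalisation and -0.29 with the length trend removed.

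The log2 ratio of Kcne2 to Atp4a went from -5.50 ± 0.18 in controls to -4.51 ± 0.201 in noggin libraries, a difference of 0.99 (SD, n = 3 each; exact permutation p = 0.1, adjusted p = 0.167). It was higher in 3 of 3 noggin libraries than in any control. The corresponding differences were 0.36 for Kcnq1 (exact permutation p = 0.1, adjusted p = 0.167), 0.31 for Kcnj16 (exact permutation p = 0.3) and 0.23 for Kcnj15 (exact permutation p = 0.4). With the trend on the longest transcript removed they were 0.53 for Kcnj15, 0.44 for Kcne2, 0.35 for Kcnj16 and 0.25 for Kcnq1. There the groups overlapped for Kcne2 and Kcnj16, and not for Kcnj15 and Kcnq1. On the median transcript that of Kcnq1 turned to -0.51. Relative to Atp4b, a comparison added after seeing the data and given with no test, all 4 log2 ratios were lower in every noggin library than in any control. As deposited, Atp4b was itself higher in every noggin library, which lowers any ratio to it. The share of all tested genes that are lower relative to Atp4b was not determined. The differences in log2 ratio to Atp4b were -1.08 for Kcnq1, -0.44 for Kcne2, -1.20 for Kcnj15 and -1.12 for Kcnj16. With the trend on the longest transcript removed they were -0.50, -0.30, -0.22 and -0.39, and the groups overlapped for Kcnj15. Ratios with Kcnj10 are not given, because its values lie far under the pseudocount. They still count among the 10 ratios of the adjustment. Each has an exact permutation p of 0.1, which lowers the adjusted p of the other ratios at 0.1.

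Other transport genes of acid secretion were also lower in part. Of 17 listed, Atp4a and Atp4b among them, 16 were tested, 3 fell and 0 rose with limma, at a median log2 fold change of -1.11 and against 0.695% of all tested genes called lower. Of the 16, 14 had negative values. By limma unadjusted p under 0.05, 10 were lower and 1 was higher, against 1162 and 1677 of all 10644 tested genes. The 3 were Clic6, a chloride channel protein (-1.42, adjusted p = 0.0483), Slc26a7, a chloride and bicarbonate exchanger (-1.41, adjusted p = 0.04997), and Slc4a2, the basolateral exchanger of the same ions (-1.09, adjusted p = 0.0357). Clic6 and Slc26a7 are also among the parietal markers called lower above, so those calls are the same ones. The number of these genes called lower was 0 with the length trend removed, without a filter on low values, without the mean-variance trend, and when control replicate 1, 2 or 3 or noggin replicate 1 was left out. It was 10 after rescaling, 9 without noggin replicate 2 and 4 without noggin replicate 3.

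Among 9 genes of the secretory stimulus, 1 was called higher and 0 lower with limma, against 1.75% and 0.695% of all tested genes. The called gene is not among those named in this paragraph. Gnas, the stimulatory G protein subunit through which histamine receptors raise cyclic AMP, was at a log2 fold change of 0.57 with a limma adjusted p of 0.116. The fold change turned to -0.14 after rescaling and -0.19 after quantile normalisation. Relative to the median of all tested genes, Gnas was at 0.61 as deposited, 0.49 after rescaling and -0.09 after quantile normalisation. Hrh2, the histamine receptor of parietal cells, was at -0.48 (adjusted p = 0.328), and Cckbr, the gastrin receptor, at 0.52 (adjusted p = 0.389).

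The close relatives had lower levels than Kcne2, Kcnq1, Kcnj16 and Kcnj15. Of 8 other KCNQ and KCNE genes 2 were tested, and of 12 other inward rectifier genes 1 was tested; 0 of these 3 passed with limma, and 0 had an unadjusted p under 0.05. Kcne1, the partner of Kcnq1 in the heart, was at -0.46 on the log2 scale (limma adjusted p = 0.278), and was called lower after rescaling (-1.15, adjusted p = 0.0467). Relative to the median of all tested genes it was at -0.42 as deposited and -0.52 after rescaling. Kcnj13 (Kir7.1) was at 9.69 to 12.7 FPKM in controls and 10.2 to 17.1 FPKM in noggin libraries, at 0.25 (limma adjusted p = 0.588). That fold change turned to -0.41 after rescaling and to -0.35 with the length trend removed. Relative to the median of all tested genes, Kcnj13 was at 0.28 as deposited, 0.22 after rescaling and -0.33 with the length trend removed. Kcne2 made up 87.2% to 90.2% of the summed KCNE transcripts in controls and 82.4% to 89.4% in noggin libraries.

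Each of Kcne2, Kcnj16, Kcnj15 and Kcnj10 has a relative of the same family nearby on its chromosome. Kcne1 lies 47.9 kb from Kcne2 on the opposite strand (chromosome 16, 92345982 to 92359468), with 2 protein-coding genes between them, and its control mean was 33.9 FPKM against 318 FPKM for Kcne2. Kcnj2 lies 38.2 kb from Kcnj16 with 0 protein-coding genes between them (chromosome 11, 111066164 to 111076821), and was at 0.694 to 1.35 FPKM in controls and 0.246 to 0.834 FPKM in noggin libraries. Kcnj6 lies 259.9 kb from Kcnj15 (chromosome 16, 94748636 to 94997701) and was at 0.0104 to 0.292 FPKM in controls. Kcnj9 lies 11.9 kb from Kcnj10 (chromosome 1, 172320501 to 172329318) and was listed at 0 in all libraries but control replicate 3, at 0.0154 FPKM. In the first 3 pairs the neighbour was thus below the channel gene in all 6 libraries.

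The antisense transcript Kcnq1ot1, which silences imprinted genes around Kcnq1, was at 0.51, 0.67 and 1.14 FPKM in control replicates 1, 2 and 3 and at 3.94, 0.618 and 5.21 FPKM in noggin replicates 1, 2 and 3. Its groups overlapped (log2 fold change 1.07, adjusted p = 0.228). These levels were far under those of Kcnq1.

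For each of the 4 tested channel genes, the pair of genes with the most similar pattern over the 6 libraries was sought among 5119 genes, as the smallest root mean square difference of centred log2(FPKM + 1). For Kcnq1 these were Pcmtd2 (0.0365) and Ablim1 (0.0683), an actin-binding protein. For Kcne2 they were Car5b (0.0439), a mitochondrial carbonic anhydrase, and Acad9 (0.055), an assembly factor of respiratory complex I. For Kcnj15 they were Golga4 (0.0817), a Golgi tethering protein, and Mtap7 (0.0984), a microtubule-associated protein. For Kcnj16 the closest was Sdha (0.0867), a subunit of respiratory complex II. Sdha was at 318.3, 371.2 and 397.3 FPKM in control replicates 1, 2 and 3 and at 148.6, 218.1 and 191.5 FPKM in noggin replicates 1, 2 and 3, so it shared with Kcnj16 the lowest value in noggin replicate 1.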

How the data were processed

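The authors deposited 1 table of FPKM values per gene and library; per the labels' protocols, libraries were made with the SMART-Seq Ultra Low Input kit and sequenced single-end. The submitters' processing notes name mm10, bcl2fastq and FastQC 0.10.0. For the aligner, the quantifier and the annotation, the name is not given in the sources used here. Depth is unknown, so no counting interval is given. Groups came from sample titles. The channel genes, lists and tests were chosen with earlier results of these data known.

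A gene was tested if 3 or more libraries had 1 FPKM or more, which held for 10644, on log2(FPKM + 1), a scale that understates changes of low genes, with limma 3.58.1 in R 4.3.3 (mean-variance trend, group as only term, two-sided). Benjamini-Hochberg adjustment ran over all tested genes, and every adjusted p of a gene is from this test. For ratios the exact permutation test, two-sided, was used. The fit was tested on simulated data. Symbols were matched to GENCODE M21 (20911 directly, 1915 by an older symbol, 458 unmatched); 99.0% of tested genes had a transcript length. The length trend of a library is a lowess curve (span 0.3) of its deviation from the mean of all libraries on the longest transcript. Named genes are the 5 channel genes, up to 4 of each pathway list (called ones first, then by unadjusted p), family members reaching 1 FPKM in 3 libraries, and the 2 genes most like each channel gene, from those averaging 10 FPKM or more, without predicted ones. The neighbouring genes, Kcnq1ot1, Atp4a, Atp4b, the cell type markers and the ratio partners stand outside that rule. Some genes that the rule names are not reported here.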

Additional observations from a re-analysis of the deposited data

How the results depend on the processing

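The log2 fold changes of the 4 tested channel genes stayed negative in all 16 alternatives, and Kcne2 passed in 0 of them (-0.94 to -0.13). Changing the filter, dropping the mean-variance trend or adding a replicate block leaves a fold change as it is, so those signs were fixed. Kcnq1, Kcnj15 and Kcnj16 passed under 3 alternatives: rescaling to equal totals (-1.57, -1.69 and -1.61, 3 called lower), quantile normalisation (-1.41, -1.34 and -1.34, 3 called lower) and omission of noggin replicate 2. In these settings 820, 174 and 825 of all tested genes were called lower, against 74 in the main fit. Over the 6 omissions of 1 library the fold changes ran from -0.96 to -0.68 for Kcnq1, -1.10 to -0.83 for Kcnj15 and -1.03 to -0.76 for Kcnj16, with 0 to 3 called lower. The causes were not tested.

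Of the acid transport genes, 3 were called lower, and 1 with a pseudocount of 0.1 or 0.01, 0 without a filter, without the mean-variance trend, with the length trend removed or with a replicate block, 5 after quantile normalisation and 10 after rescaling. Omitting a library gave 0 to 9 lower and 0 to 1 higher. Rescaling called 1 of the other KCNQ and KCNE genes lower. Of the stimulus genes 1 was called higher, against 1.75% of all tested genes. That count was 0 with a pseudocount of 0.01, without a filter, after rescaling or quantile normalisation, without the trend or with the block. Omissions gave 0 to 1.

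Among the ratios, Kcnj15 to Kcnj16 turned to 0.17 with the length trend removed and ranged from -0.28 to 0.070 over omissions. Kcnq1 to Kcnj15 turned to -0.28 with the length trend removed and ranged from -0.090 to 0.35 over omissions. Kcne2 to Kcnj15 turned to -0.086 with the length trend removed. A length correction on the median rather than the longest transcript, added after seeing the data because the median Kcnq1 transcript has 294 bases, turned Kcnq1 to Kcnj15 to -0.88 and Kcnq1 to Atp4a to -0.51, and gave -1.24 for Kcnq1 to Kcne2 and 0.36 for Kcne2 to Kcnj15. The cause was not tested.

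The labels do not state that replicate numbers pair libraries. The deviations of same-numbered libraries from their group means correlated at 0.105, -0.141 and 0.00519. Only replicate 1 of the controls correlated best with its own number. With groups of 3 centred on their own means, these values cannot decide whether libraries were paired. The replicate block cannot change a fold change here, since each replicate number occurs in both groups. With it the limma adjusted p was 0.121 for Kcnq1, 0.605 for Kcne2, 0.104 for Kcnj15 and 0.1 for Kcnj16. Of the channel genes 0 were called, and 32 genes were lower and 128 higher over all tested genes.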

Other observations

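Kcne3, a partner that holds Kcnq1 open in intestinal and airway epithelia, differed widely between libraries. It was at 2.48, 4.54 and 9.02 FPKM in control replicates 1, 2 and 3 and at 4.02, 41.5 and 12.6 FPKM in noggin replicates 1, 2 and 3, so the groups overlapped (log2 difference 1.30, SE 0.760, adjusted p = 0.299 by limma). The summed level of 6 enteroendocrine markers, gastrin among them, was 441, 680 and 2680 FPKM in control replicates 1, 2 and 3 and 1890, 28600 and 21200 FPKM in noggin replicates 1, 2 and 3. Both measures were lowest in control replicate 1 and highest in noggin replicate 2, where gastrin (Gast) alone was at 26030 FPKM. By single marker, Gast, Chgb and Hdc were highest in noggin replicate 2, but Chga, Ghrl and Sst in noggin replicate 3. Gast and Sst were lowest in noggin replicate 1, and the other markers in control replicate 1. The part of enteroendocrine cells in the Kcne3 values was not tested. Kcne2 in noggin replicate 2 was at 288.5 FPKM, close to noggin replicate 3.

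Kcnj6, the inward rectifier gene beside Kcnj15, was at 15.4 FPKM in noggin replicate 3, at 1.02 FPKM in noggin replicate 1 and listed at 0 in noggin replicate 2, so a single library carried nearly all of its signal. Noggin replicate 3 was also the library with the lowest Kcnj15, at 35.7 FPKM.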
